A study of Mus musculus with 12 samples.

Results

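RNA bound to ER-labelled ribosomes was compared with RNA bound to cytosol-labelled ribosomes in mouse embryonic stem cells. The comparison used 3 libraries of each kind, 6 of the 12 libraries of the series, and every gene with enough reads to test (16221 of 55416 gene identifiers). The cells were of the line E14Tg2a.4 and carried Rpl31-FTA, a tagged protein of the large ribosomal subunit, in all groups. They were grown with serum and leukemia inhibitory factor and transfected with a pair of plasmids, 1 for each fragment (N-terminal or C-terminal) of ALIBi, a biotinylation system targeted either to the cytosol or to the endoplasmic reticulum (ER). Labelled ribosomes were then purified with the RNA they held. The other 6 libraries held whole-cell RNA, from an aliquot of the lysate set aside before purification, for each targeting. The labels call the 3 libraries of a group biological replicates. Labelling rested on transfected plasmids and on ribosomes that carried the tag, so ribosomes of cells without them were not labelled. How much unlabelled RNA was carried through the purification was not tested.

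Proteins bound for secretion, for the plasma membrane or for the organelles of the secretory pathway are made on ribosomes docked at the ER. A hydrophobic stretch of the growing chain, a signal peptide near the start or a membrane segment further in, is caught by the signal recognition particle, which brings the ribosome to its receptor and to the Sec61 channel. Proteins of the cytosol and nucleus, most mitochondrial and peroxisomal proteins, and membrane proteins anchored only by their C terminus are made on free ribosomes and sorted afterwards. Stem cells depend on both routes at once, since the receptors that hold them in the pluripotent state are ER products and the transcription factors behind those receptors are not.

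Reads counted in genes came to 23285186 to 26920565 in the ribosome-bound libraries. Pluripotency markers were abundant in all 12 libraries, with a summed level of 8457.8 to 13531.5 CPM over 8 genes, where CPM is a count scaled to the size of its library. Markers of primitive endoderm (7 genes), mesoderm (6) and neural cells (5) summed to 14.9 to 37.1 CPM. Of 6 fibroblast or feeder markers, Vim made up most of a summed 212.5 to 278.2 CPM. Thy1 was at 54.05 to 62.07 CPM on ER-labelled and at 15.19 to 17.7 CPM on cytosol-labelled ribosomes. Col1a1 was at 9.21 to 11.29 against 2.87 to 2.97 CPM and Col1a2 at 2.69 to 2.95 against 0.54 to 0.93 CPM. Col3a1 was at 0.26 CPM or less and S100a4 at 0.04 CPM or less. The mRNA of the tagged gene, Rpl31, was at 1065.0, 1053.7 and 1052.5 CPM on ER-labelled and at 970.8, 983.8 and 947.0 CPM on cytosol-labelled ribosomes, which shows that it was present in both but does not test the labelling.

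The ratios of ER-labelled to cytosol-labelled RNA fell into a large group near no difference and a smaller group of mRNAs several-fold higher at the ER, with few genes between. Among 11028 genes at 5 CPM or more, the most common log2 ratio was -0.25 to 0, with 4178 genes, and the count dropped to 173 genes between 0.5 and 0.75. It then climbed again to 487 genes between 1.5 and 1.75. No gene of this abundance lay below -1, and the range ran from -0.79 to 2.67. The same ratio in whole-cell RNA had a single peak, its 5th and 95th percentiles at -0.11 and 0.11 against -0.36 and 1.93 in ribosome-bound RNA. The quasi-likelihood test of edgeR, adjusted by the Benjamini-Hochberg method, called 4715 genes (29.1%) higher at the ER and 3983 (24.6%) lower. A difference of over 2-fold, tested with edgeR's glmTreat, was called for 2317 genes (14.3%) on the ER side and for 0 (0.0%) on the cytosol side (6 at an unadjusted p under 0.05, and 0 by DESeq2 with 0 unadjusted). In 2316 of these 2317 genes, every ER library lay above every cytosol library. They took up 25.39%, 25.3% and 25.18% of the reads in the ER-labelled libraries, 7.93%, 7.77% and 8.09% in the cytosol-labelled ones and 9.66% to 9.78% in whole-cell RNA, shares that describe genes chosen by this same difference. Small differences depend on the reference. When libraries were scaled to 137 genes of cytosolic proteins in place of all genes (here called cytosolic scaling), the median of all tested genes moved up by 0.238 (log2), and 8215 genes were higher and 616 lower, all 4715 and all 616 being among the calls above. The log2 ratio of a single gene moves up by about the same 0.238 under this scaling, so the sign of a ratio just below 0, and the call of a small shift, depend on the scaling also where its second value is not printed.

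**Figure D1:**
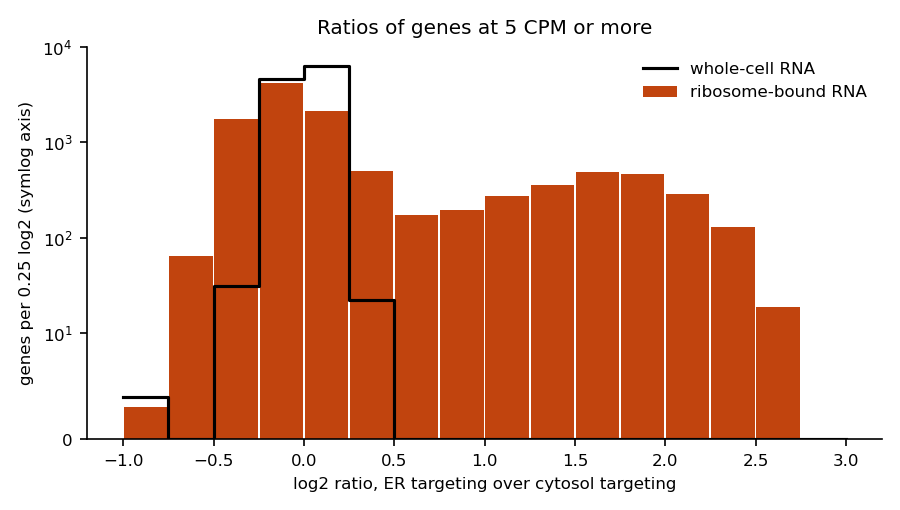
Genes per bin of 0.25 in the log2 ratio of ER to cytosol targeting, for ribosome-bound RNA (bars) and whole-cell RNA (line), over 11028 genes at 5 CPM or more; the vertical axis is linear up to 10 and logarithmic above. Ribosome-bound RNA has a second group of genes around 1.5 to 2 that whole-cell RNA lacks.

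Families that keep 1 member in the secretory pathway and another in the cytosol show the division within a single enzyme activity or fold. The first 40 codons of 5 such pairs are printed here because most of the ER members differ from their relatives there: they begin with a signal peptide or signal anchor. Capitals mark the 11 codons whose residues have the highest mean hydropathy on the Kyte-Doolittle scale. Sequences are of GENCODE M21 transcripts (GRCm38), 5′ to 3′ from the start codon, with the ER member of each pair first.
Hspa5: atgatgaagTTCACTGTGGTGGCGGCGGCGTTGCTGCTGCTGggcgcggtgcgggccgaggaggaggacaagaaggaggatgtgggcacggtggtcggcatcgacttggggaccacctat
Hspa8: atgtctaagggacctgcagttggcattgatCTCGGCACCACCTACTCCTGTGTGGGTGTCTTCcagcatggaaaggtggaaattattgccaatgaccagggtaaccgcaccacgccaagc
Ppib: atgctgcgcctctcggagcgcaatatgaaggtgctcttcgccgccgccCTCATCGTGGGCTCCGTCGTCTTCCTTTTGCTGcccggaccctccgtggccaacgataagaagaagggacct
Ppia: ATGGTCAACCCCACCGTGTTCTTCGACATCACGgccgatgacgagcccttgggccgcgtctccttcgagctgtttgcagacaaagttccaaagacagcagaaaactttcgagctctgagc
Prdx4: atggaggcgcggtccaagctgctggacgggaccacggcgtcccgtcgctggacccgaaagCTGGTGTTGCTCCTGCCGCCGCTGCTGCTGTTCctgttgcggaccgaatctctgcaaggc
Prdx1: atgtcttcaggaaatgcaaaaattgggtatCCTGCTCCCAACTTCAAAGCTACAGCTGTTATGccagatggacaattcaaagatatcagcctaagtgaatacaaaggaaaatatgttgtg
Cst3: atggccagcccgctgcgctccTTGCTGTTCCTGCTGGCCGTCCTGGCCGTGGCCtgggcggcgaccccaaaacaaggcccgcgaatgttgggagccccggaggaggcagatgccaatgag
Cstb: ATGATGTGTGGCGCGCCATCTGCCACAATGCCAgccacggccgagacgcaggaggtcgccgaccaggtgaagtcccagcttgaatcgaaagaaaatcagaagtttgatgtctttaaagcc
Eif2ak3: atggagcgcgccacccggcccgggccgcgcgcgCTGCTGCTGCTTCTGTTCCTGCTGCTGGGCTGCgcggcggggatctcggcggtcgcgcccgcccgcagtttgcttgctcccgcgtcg
Eif2ak4: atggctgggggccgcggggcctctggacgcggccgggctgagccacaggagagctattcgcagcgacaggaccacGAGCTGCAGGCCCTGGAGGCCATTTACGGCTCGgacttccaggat
The start codons lie at chr2:34772322-34772324 (plus strand) for Hspa5, chr9:40801923-40801925 (plus) for Hspa8, chr9:66060266-66060268 (plus) for Ppib, chr11:6415911-6415913 (plus) for Ppia, chrX:155338360-155338362 (minus) for Prdx4, chr4:116687418-116687420 (plus) for Prdx1, chr2:148875375-148875377 (minus) for Cst3, chr10:78425792-78425794 (plus) for Cstb, chr6:70844726-70844728 (plus) for Eif2ak3 and chr2:118388709-118388711 (plus) for Eif2ak4. In the ER members the marked stretch has a mean hydropathy of 2.83 (Hspa5), 3.08 (Ppib), 2.76 (Prdx4), 3.24 (Cst3) and 3.21 (Eif2ak3). In their relatives the highest stretch reaches 1.2 (Hspa8), 0.95 (Ppia), 0.27 (Prdx1), 0.61 (Cstb) and 0.25 (Eif2ak4).

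Across 20 such pairs with both genes measured, of 21 listed, the secretory member was higher on ER-labelled ribosomes by over 2-fold in 20 of 20. Its log2 ratio ran from 1.22 to 2.43 with a median of 2.13. The cytosolic members had ratios from -0.54 to 0.14 with a median of -0.1 (0.14 with cytosolic scaling): 2 were higher, 9 lower and 9 not past the threshold, against 12 higher and 1 lower with cytosolic scaling. Of all tested genes, 29.1% were higher and 24.6% lower with TMM scaling. The difference within a pair was between 1.28 and 2.86. Under TMM scaling the 2 genes that were higher among the cytosolic members were Hsp90ab1 and Ogt. The pairs were chosen with earlier results of these data known, so these counts describe them and are not a test.

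Hspa5, the Hsp70 chaperone of the ER lumen, was at 1307.0, 1295.2 and 1368.3 CPM on ER-labelled and at 259.8, 273.9 and 284.0 CPM on cytosol-labelled ribosomes. Hspa8, the Hsp70 of the cytosol, was at 1190.3, 1160.6 and 1174.5 CPM against 1360.8, 1444.8 and 1397.1 CPM. The ER chaperone was thus far above in every ER library (log2 2.28, SE 0.038, adjusted p = 1.18e-33, edgeR), and the cytosolic one was slightly below (-0.25, SE 0.032; -0.015 with cytosolic scaling). In the Hsp90 family, Hsp90b1 of the ER was at 2620.3, 2615.2 and 2627.4 CPM against 551.8, 565.7 and 603.0 CPM (2.19, SE 0.036). Hsp90ab1, 1 of its cytosolic counterparts and the most abundant gene of these pairs, was at 5034.1, 5028.1 and 4989.1 CPM against 4623.8, 4698.2 and 4777.0 CPM (0.09, SE 0.030; 0.33 with cytosolic scaling). The prolyl isomerase Ppib of the ER lumen was at 585.6, 581.7 and 587.1 CPM against 140.6, 143.9 and 143.8 CPM (2.03, SE 0.035), whereas its cytosolic relative Ppia, the target of cyclosporin, was at 1560.5, 1579.1 and 1564.0 CPM against 1787.1, 1866.2 and 1832.2 CPM (-0.22, SE 0.033; 0.02 with cytosolic scaling).

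Antioxidant enzymes, protease inhibitors and kinases divided in the same way. Among peroxiredoxins, which reduce hydrogen peroxide, ER-resident Prdx4 had a ratio of 2.31 (SE 0.043) and cytosolic Prdx1 of -0.15 (SE 0.032; 0.09 with cytosolic scaling). The secreted protease inhibitor Cst3 was at 353.1, 345.1 and 358.1 CPM against 82.8, 80.5 and 85.5 CPM (2.09, SE 0.038). Intracellular Cstb of the same cystatin family was at 108.0, 109.3 and 109.8 CPM against 114.6, 108.9 and 104.4 CPM, and these groups overlapped (-0.003, SE 0.046, adjusted p = 0.959, edgeR; 0.23 and called higher with cytosolic scaling). The next pair phosphorylates the initiation factor eIF2. Eif2ak3, or PERK, which spans the ER membrane, was at 35.4, 35.8 and 30.9 CPM against 9.99, 8.94 and 9.38 CPM (1.85, SE 0.078), and Eif2ak4, or GCN2, a cytosolic sensor of uncharged tRNA, at 27.2, 25.1 and 28.4 CPM against 29.7, 28.1 and 29.5 CPM (-0.11, SE 0.058; 0.12 with cytosolic scaling). Of the prolyl hydroxylases, the collagen-modifying P4ha1 gave 2.43 (SE 0.048) and Egln1, which hydroxylates hypoxia-inducible factors, -0.005 (SE 0.045; 0.23 and called higher with cytosolic scaling). The widest gap was that of the FK506-binding isomerases Fkbp9 (2.33, SE 0.036) and Fkbp4 (-0.54, SE 0.036), and Fkbp4 was the cytosolic member still lower with cytosolic scaling (-0.30).

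Transcription factors divided too. Nfe2l1, which is inserted into the ER membrane before it is released to the nucleus, was at 402.6, 398.2 and 425.2 CPM against 143.7, 147.6 and 148.6 CPM (1.48, SE 0.037). Its relative Nfe2l2, or NRF2, a cytosolic factor held by Keap1, was at 92.5, 100.7 and 91.4 CPM against 102.8, 99.1 and 99.9 CPM (-0.08, SE 0.041; 0.15 and called higher with cytosolic scaling). Creb3, a factor anchored in the ER membrane, had the lowest ratio among the secretory members (1.22, SE 0.094), with 17.7, 16.7 and 16.5 CPM against 7.31, 8.09 and 6.41 CPM, while soluble Creb1 gave -0.06 (SE 0.064; 0.18 and called higher with cytosolic scaling). An N-terminal hydrophobic segment, defined as an 11-residue window with a mean hydropathy of at least 2 in the first 40 residues, was found in 18 of the 20 secretory members and in 0 of the 20 cytosolic ones. The 2 secretory members without it were Man2b1, whose highest window was 1.89, and Creb3, whose highest was 0.54 and whose single membrane segment starts at residue 238.

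Exons of Ppib overlap those of Snx22 on the opposite strand by 825 bases, and those of Creb3 overlap Tln1 by 360 bases, so these values are less certain. The same holds for Ctnnb1 (759 bases with Ulk4), Rtn4 (1284 with Eml6) and Srprb (888 with a predicted gene on the same strand).

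**Figure D2:**
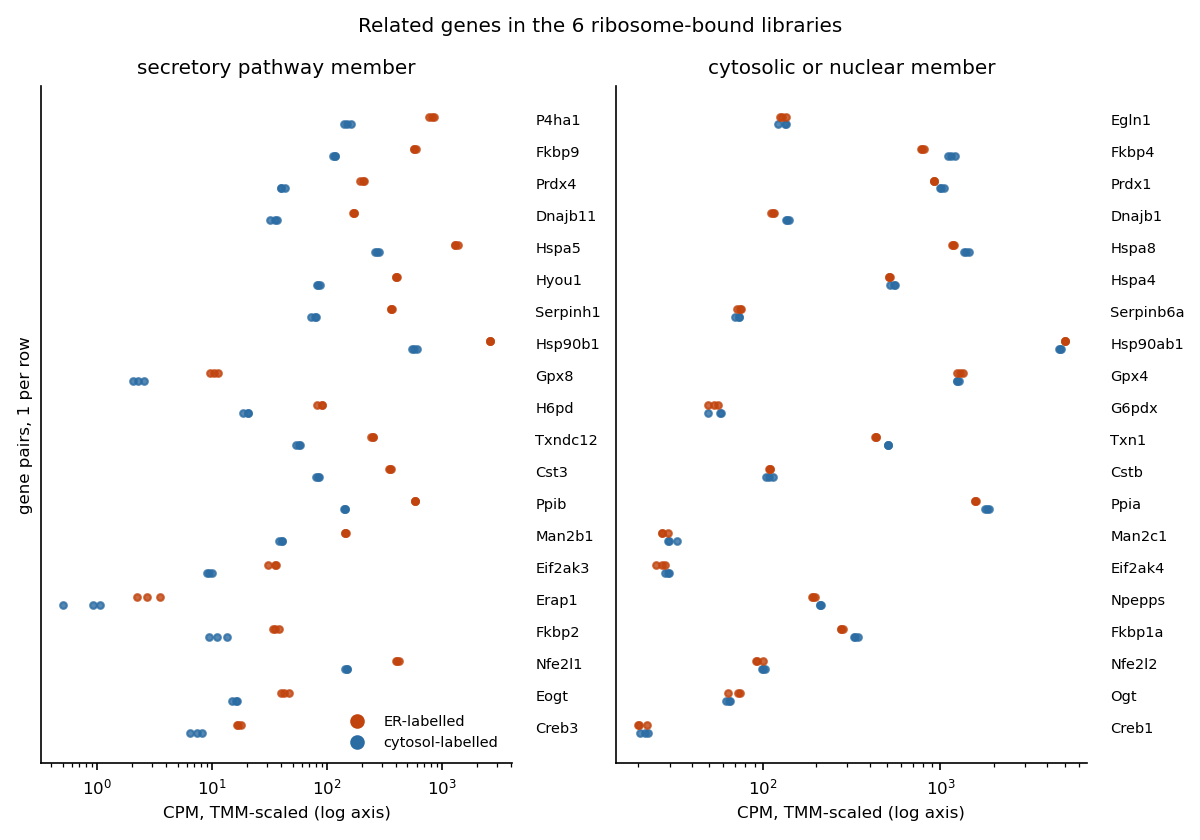
TMM-scaled CPM (log axis) of 20 gene pairs in each of the 6 ribosome-bound libraries, 1 point per library, with the secretory member on the left and its cytosolic or nuclear relative on the right of the same row. On the left the ER-labelled libraries lie above all cytosol-labelled ones in every row; on the right the groups lie close together or overlap.

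The same boundary ran through signalling pathways and molecular machines whose parts are made on both sides. In 15 pathways, genes of membrane or lumenal proteins were listed against their cytosolic or nuclear partners. These lists, and the lists by destination further on, were also chosen with earlier results known, so their counts are descriptions. Of 123 membrane or lumenal genes, 121 were higher and 1 lower (median 1.71), 115 of them by over 2-fold, set against 14.3% of all tested genes. Of 153 measured cytosolic or nuclear partners, 25 were higher (16.3%, against 29.1% of all tested genes) and 74 lower (against 24.6%). Their median was -0.10, and 6 (3.92%) were over 2-fold higher. With cytosolic scaling 78 of the partners were higher and 12 lower (median 0.14), so only the distance between the sides is independent of the scaling. By pathway, the membrane medians ran from 1.46 to 2.12 and the partner medians from -0.28 to 0.22 (-0.04 to 0.46 with cytosolic scaling). In whole-cell RNA the medians of the sides were 0.01 and 0.03.

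The pathways that hold stem cells in their state were divided at the receptor. The subunits of the receptor for leukemia inhibitory factor were both higher: Lifr at 146.7, 141.5 and 143.8 CPM against 39.6, 34.8 and 39.4 CPM (1.92, SE 0.047), and Il6st, or gp130, at 166.3, 152.3 and 178.2 CPM against 51.5, 55.2 and 55.8 CPM (1.61, SE 0.052). The kinase Jak1, which binds these receptors from the inside, was at 68.6, 69.9 and 64.9 CPM against 66.2, 62.0 and 66.5 CPM, and the transcription factor Stat3 at 77.2, 85.4 and 72.0 CPM against 81.9, 66.8 and 72.8 CPM. Both sets overlapped and neither gene passed the threshold (Jak1 0.06, SE 0.043; Stat3 0.09, SE 0.066), although both were higher with cytosolic scaling (0.30 and 0.32). For Nodal and BMP signalling, 11 of 11 ligands, coreceptors and receptors were higher, from Gdf3 at 2.03 to the receptor Bmpr2 at 0.99. The Smad proteins that carry the signal lay between -0.17 (Smad5) and 0.06 (Smad7). In Wnt signalling all 10 membrane genes were higher, from the coreceptor Lrp5 at 2.14 to the ubiquitin ligase Rnf43 at 0.73, and 13 cytosolic genes lay between -0.33 (Axin1) and 0.27 (Apc). FGF ligands and receptors were higher in 6 of 6 (1.21 to 2.00) and the kinases and adaptors downstream lay between -0.27 (Map2k1) and 0.15 (Frs2). In the Notch pathway 12 of 12 were higher, from the ligand Jag2 at 1.3 to the gamma-secretase subunit Ncstn at 2.30, against -0.55 for the nuclear coactivator Snw1 and 0.07 for the ubiquitin ligase Mib1. Snw1 shares 2914 bases of exon with Slirp on the opposite strand in the annotation used, and whether counting used strand is not given in the sources used here.

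Adhesion complexes and the vacuolar ATPase, whose subunits meet only after assembly, gave the same picture. E-cadherin, Cdh1, was at 895.4, 895.8 and 909.7 CPM against 196.2, 195.9 and 205.4 CPM (2.18, SE 0.034). Beta-catenin, Ctnnb1, which binds its tail, was at 466.8, 484.0 and 460.5 CPM against 552.7, 537.2 and 559.4 CPM (-0.23, SE 0.034; 0.01 with cytosolic scaling). Integrin beta 1, Itgb1, gave 2.30 (SE 0.036), and talin, Tln1, which links integrins to actin, -0.34 (SE 0.041; -0.10 with cytosolic scaling). Of the vacuolar ATPase, 7 of 7 membrane and accessory subunits were higher, from Atp6v0a2 at 1.38 to Atp6ap1 at 2.52 (225.6, 240.6 and 218.4 CPM against 40.9, 36.1 and 41.8 CPM). The 9 subunits on the cytosolic side lay between -0.37 (Atp6v1b2) and 0.02 (Atp6v1d). In ER-associated degradation, 14 of 14 membrane and lumenal genes were higher (median 1.79), led by Sel1l at 2.14, while the cytosolic extraction and shuttling factors were lower in 7 of 8 (median -0.25). Of all tested genes, 24.6% were lower. With cytosolic scaling 1 of these 8 factors was lower and 1 higher (median -0.01).

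Some genes stood on the other side from their partners, and those named here were chosen after their values were seen. The cytosolic partners of the ER stress sensors were higher in 5 of 8 and lower in 0 (median 0.22, or 0.46 with cytosolic scaling). Those of insulin, amino acid and mTOR signalling were higher in 4 of 14 and lower in 1. Sar1a and Sar1b encode small GTPases of the cytosol that start COPII coats at the ER. Sar1b was at 118.1, 113.7 and 119.0 CPM on ER-labelled against 36.3, 36.4 and 38.3 CPM on cytosol-labelled ribosomes (1.66, SE 0.043), and Sar1a at 191.4, 202.4 and 191.2 CPM against 84.9, 86.6 and 87.6 CPM (1.18, SE 0.036). The coat proteins that Sar1 recruits lay far lower, with Sec23a at -0.21, Sec24c at -0.34 and Sec13 at -0.45 (0.03, -0.10 and -0.21 with cytosolic scaling). The start of Sar1b, printed in the same way (start codon at chr11:51777504-51777506, plus strand, GRCm38), holds an amphipathic helix known to insert into membranes and has no stretch above a mean hydropathy of 1.39.
Sar1b: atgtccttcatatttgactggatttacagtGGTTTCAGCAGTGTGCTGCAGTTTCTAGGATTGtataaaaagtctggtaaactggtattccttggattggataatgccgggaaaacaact
Srpr, the subunit of the receptor for the signal recognition particle that binds the particle and is held by the membrane subunit Srprb, was at 321.9, 328.9 and 320.8 CPM against 105.1, 115.3 and 110.3 CPM (1.56, SE 0.039), near Srprb itself (1.87, SE 0.045). Among proteins of the particle, Srp72 was at 258.4, 242.9 and 244.6 CPM against 153.6, 147.8 and 147.1 CPM (0.73, SE 0.038), while Srp54a, a paralog of the GTPase subunit, and Srp68 gave -0.35 and -0.34 (-0.11 and -0.10 with cytosolic scaling). Xbp1, the effector of the unfolded protein response, whose mRNA is known to be held at the ER by a hydrophobic stretch of its unspliced product, was at 98.8, 99.6 and 105.3 CPM against 41, 47.3 and 42.0 CPM (1.22, SE 0.048). The nucleoporin Nup155 gave 1.23 (SE 0.040), with 124.3, 124.0 and 128.9 CPM against 53.5, 52.2 and 55.4 CPM. The median of the 21 measured nucleoporins listed as soluble, Nup155 included, was -0.12 (0.12 with cytosolic scaling). Foxh1, a nuclear partner of Smad2, gave 1.34 (SE 0.044), with 103.5, 108.3 and 106.3 CPM against 42.8, 41.9 and 41.1 CPM. Smaller differences in the same direction were seen for the phosphatase subunit Ppp1r15b (0.84), the kinase Eif2ak1 (0.64) and mevalonate kinase Mvk (0.52).

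On the membrane side the exceptions were Preb, Lss and Fdft1. Preb, the ER membrane exchange factor for Sar1, was at 57.4, 57.0 and 59.1 CPM against 57.9, 63.9 and 62.1 CPM, and the groups overlapped (-0.08, SE 0.045, adjusted p = 0.117, edgeR). With cytosolic scaling it was at 0.15 and called higher, as were 10 of 10 membrane-side members of its list of cargo receptors and coats. It is anchored near its C terminus. Lanosterol synthase Lss, which dips into a single leaflet of the ER membrane, was at 54.6, 58.1 and 59.7 CPM against 62.0, 66.2 and 68.2 CPM (-0.19, SE 0.052, and 0.05 with cytosolic scaling). Squalene synthase Fdft1, anchored near its C terminus, gave 0.50 (SE 0.038), and 774 bases of its exons overlap those of Ctsb (2.52) on the opposite strand. The other sterol enzymes of the ER membrane ran from Nsdhl at 0.77 to Dhcr7 at 2.26.

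**Figure D3:**
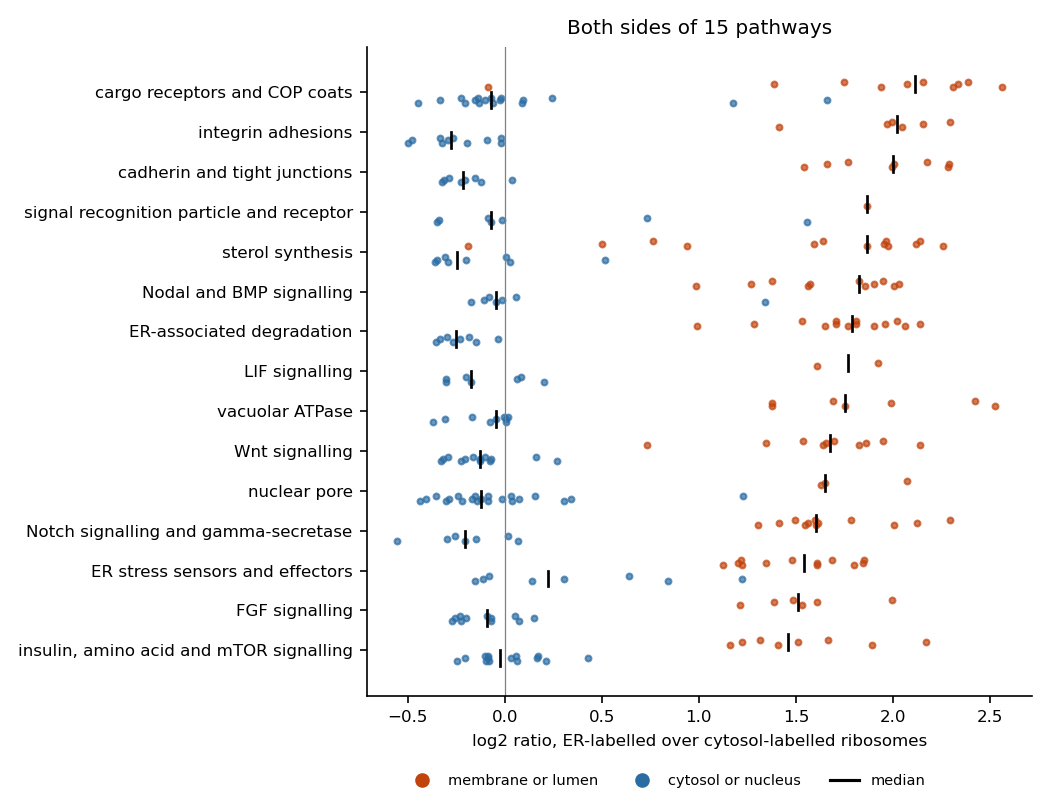
Log2 ratio of ER-labelled over cytosol-labelled ribosomes for each gene of 15 pathways, membrane or lumenal proteins in orange and their cytosolic or nuclear partners in blue, with black bars at the medians. The orange medians lie between 1.46 and 2.12 and the blue ones between -0.28 and 0.22; Sar1a, Sar1b, Srpr, Xbp1, Nup155 and Foxh1 are the blue points beyond 1.

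Secreted proteins were divided by the route they take out of the cell. Of 46 proteins secreted through the ER, 46 were higher and 43 over 2-fold higher (median 2.00), from the prohormone Trh at 2.56 (133.0, 140.1 and 141.4 CPM against 21.3, 23.8 and 25 CPM) to Vegfa at 1.06. Of 22 measured proteins that leave cells without a signal peptide, of 28 listed, 4 were higher and 9 lower, and 0 reached 2-fold (median -0.15, or 0.09 with 9 higher and 2 lower under cytosolic scaling). For this and the lists below, 29.1% of all tested genes were higher, 24.6% lower and 14.3% over 2-fold higher. Among 10677 genes with a protein at 5 CPM or more, 3364 were higher and 3748 lower. The galectins Lgals1 and Lgals3 were at -0.04 and -0.13, the annexins Anxa2 and Anxa5 at -0.29 and -0.32 and Mif at -0.09. S100a6 stood highest of this group at 0.59 (SE 0.063), with 34.2, 34.7 and 32.9 CPM against 24.2, 22.3 and 21.3 CPM.

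Organelles fed by the ER were represented throughout. All 39 lysosomal enzymes were higher (37 over 2-fold; median 2.26), with the lowest, beta-mannosidase Manba, at 0.65 (SE 0.057; 93.7, 86.7 and 93.3 CPM against 52.8, 62.7 and 59.2 CPM). Golgi glycosyltransferases, which carry a single N-terminal signal anchor, were higher in 45 of 45 (median 1.46), and 38 were over 2-fold higher. Tetraspanins and claudins, small proteins with 4 membrane segments each as background knowledge has it, were higher in 25 of 25 (median 1.82). G protein coupled receptors were higher in 35 of 36 (median 1.56) and ion pumps and channels in 24 of 25 (median 1.43). Signal peptidase and the signal peptide peptidases, which cut and clear signal peptides, were higher in 9 of 9 (median 1.93).

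The membrane proteins with the lowest ratios in these lists included very large channels. The inositol trisphosphate receptors, calcium channels of the ER whose membrane segments lie near the C terminus of a very long chain, gave 0.64 (SE 0.044) for Itpr3, 0.45 (SE 0.054) for Itpr1 and 0.26 (SE 0.242) for Itpr2, which was sparse at 1.83, 1.67 and 1.5 CPM against 1.8, 1.32 and 1.07 CPM. The calcium pump Atp2a2 of the same membrane, whose first segments lie early, gave 1.58. In the pathway that builds GPI anchors, 24 of 24 genes were higher, from the transamidase subunits Pigs (2.57) and Pigt (2.46), which have signal peptides or anchors, to Piga, the catalytic subunit of the first step. Piga was at 25.5, 27.5 and 26.7 CPM against 24.2, 23.0 and 24.1 CPM (0.16, SE 0.058), and in 13 of 19 alternative settings it did not pass the threshold. Its single segment starts at residue 417 of 485.

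Membrane proteins that enter the ER without a cleaved signal were split by their topology. Of 25 measured proteins with a hairpin or another stretch embedded in a single leaflet, 24 were higher and 17 over 2-fold (median 1.63). Arl6ip1, which shapes ER tubules, led them with 1481.5, 1449.3 and 1476.0 CPM against 346.9, 360.2 and 365.4 CPM (2.04, SE 0.034). The reticulons Rtn1 and Rtn3 gave 1.92 and 1.88, Rtn2 and Rtn4 0.94 and 0.92, and the atlastins Atl2, Atl3 and Atl1 1.10, 0.67 and 0.48. Only Ldah, a lipid droplet hydrolase, did not pass the threshold, at 31.4, 30.7 and 30 CPM against 33.3, 32.1 and 32.6 CPM (-0.09, SE 0.053). With cytosolic scaling it was at 0.15 and called higher, as were 25 of 25 of this list. Of 48 tail-anchored proteins, 5 were higher (10.4%, against 29.1% of all tested genes) and 26 lower (24.6% of all). Their median was -0.12, or 0.12 with 22 higher and 2 lower under cytosolic scaling. They included subunits of the Sec61 channel itself, Sec61b at -0.10 and Sec61g at 0.04, and the SNARE proteins of the early secretory pathway Sec22b (-0.27), Stx18 (-0.26) and Bet1 (-0.08). The 2 that stood apart were Jagn1 at 1.46 (SE 0.055; 67.1, 63.1 and 70.1 CPM against 25.2, 25 and 22.8 CPM) and Caml at 0.98 (SE 0.065; 32.5, 34.1 and 29.7 CPM against 15.6, 17.0 and 16.3 CPM). By the hydropathy scan both encode more than 1 segment, 3 in Jagn1 and 2 in Caml, so the list's name does not describe them.

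Proteins that reach the cytosolic face of membranes through a lipid anchor had a median of -0.08 over 40 genes (0.15 with cytosolic scaling), with 12 higher, 19 lower and 0 over 2-fold. The share of higher genes is near the 29.1% of all tested genes. Most Ras and Rab GTPases were below 0, such as Rab7 at -0.22, and Rab10 at 0.35 was an exception. The Src family kinases Lyn, Yes1, Fyn and Src were all higher, at 0.92 (SE 0.090), 0.67 (SE 0.052), 0.29 and 0.21. Lyn was at 20.4, 17.1 and 18.3 CPM against 9.41, 10.0 and 10.1 CPM, and 248 bases of its exons overlap a predicted gene on the opposite strand. Yes1 was at 62.0, 67.5 and 61.8 CPM against 42.0, 39.5 and 38.9 CPM. The G protein subunit Gnai2 gave 0.53 (SE 0.033), with 451.5, 455.0 and 435.6 CPM against 311.7, 303.7 and 312.2 CPM, whereas Gnaq and Gna11 were at 0.04 and -0.12.

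Outer mitochondrial and peroxisomal membrane proteins had medians between the main groups. Mitochondrial matrix enzymes were higher in 1 and lower in 24 of 41 (median -0.16, or 0.08 with cytosolic scaling), where 29.1% of all tested genes were higher and 24.6% lower. Of 26 outer membrane proteins 14 were higher (53.8%) and 8 lower (median 0.19, or 0.43 with cytosolic scaling). Over 2-fold higher were 3 (11.5%, against 14.3% of all tested genes). These were Miga2 at 1.32 (SE 0.073) and Miga1 at 1.12 (SE 0.050), which promote mitochondrial fusion, and Akap1 at 1.26 (SE 0.036), an anchor for protein kinase A. Akap1 was at 181.8, 186.3 and 175.9 CPM on ER-labelled against 77.0, 74.7 and 75.4 CPM on cytosol-labelled ribosomes. Also higher were Cisd1 at 1.02 (SE 0.042), with 297.4, 320.1 and 292.4 CPM against 152.3, 146.0 and 151.5 CPM, and the import receptor Tomm20 at 0.90 (SE 0.033), with 654.9, 683.8 and 672.2 CPM against 355.5, 365.4 and 359.4 CPM. Akap1, Miga1, Miga2 and Tomm20 are anchored by their N terminus. The barrel-shaped channel Vdac1 was at 610.4, 632.1 and 617.6 CPM against 718.0, 721.0 and 721.2 CPM (-0.22, SE 0.033; 0.02 with cytosolic scaling). Another barrel protein, the import pore Tomm40, was at 0.87.

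In the inner membrane, 31 carriers and import subunits had a median of 0.01, with 9 higher (29.0%) and 9 lower and 0 over 2-fold, near the 29.1% and 24.6% of all tested genes. The highest were Slc25a44 at 0.98 (SE 0.064) and Timm22 at 0.87 (SE 0.062), and the abundant ADP/ATP carriers Slc25a4 and Slc25a5 were at -0.15 and -0.13 (0.08 and 0.10 with cytosolic scaling). Of 22 genes of cytochrome c oxidase and its assembly, 9 were higher (40.9%, against 29.1% of all tested genes) and 2 lower (median 0.14, or 0.38 with cytosolic scaling). Cox4i1, the subunit that starts the assembly of the complex, was at 1359.5, 1375.0 and 1385.0 CPM against 779.6, 795.9 and 792.8 CPM (0.80, SE 0.032), and Cox5a, which joins it in the same assembly step, was at -0.14 (0.09 with cytosolic scaling). Sco2 at 1.17 and Cox16 at 0.83 are less certain, because exons of other genes overlap them by 829 bases or more in the annotation used.

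Peroxisomal membrane proteins were higher in 14 (82.4%, against 29.1% of all tested genes) and lower in 1 of 17 measured (median 0.43, or 0.66 with cytosolic scaling). Abcd4, a transporter that resides mainly in lysosomes, led them at 1.35 (SE 0.052; 91.3, 93 and 94.5 CPM against 39.4, 33.3 and 36.4 CPM). The ubiquitin ligase subunits Pex2 and Pex10 gave 0.97 and 0.63, the docking proteins Pex13 and Pex14 0.98 and 0.77, and the transporter Abcd3 0.30. The lowest was Far1 at -0.19 (0.05 with cytosolic scaling), anchored by its C terminus. Enzymes of the peroxisomal matrix were higher in 1 (5.0%) and lower in 14 of 20, where 24.6% of all tested genes were lower. Their median was -0.23, or 0.00 with cytosolic scaling, and Gnpat at 0.46 was the highest.

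**Figure D4:**
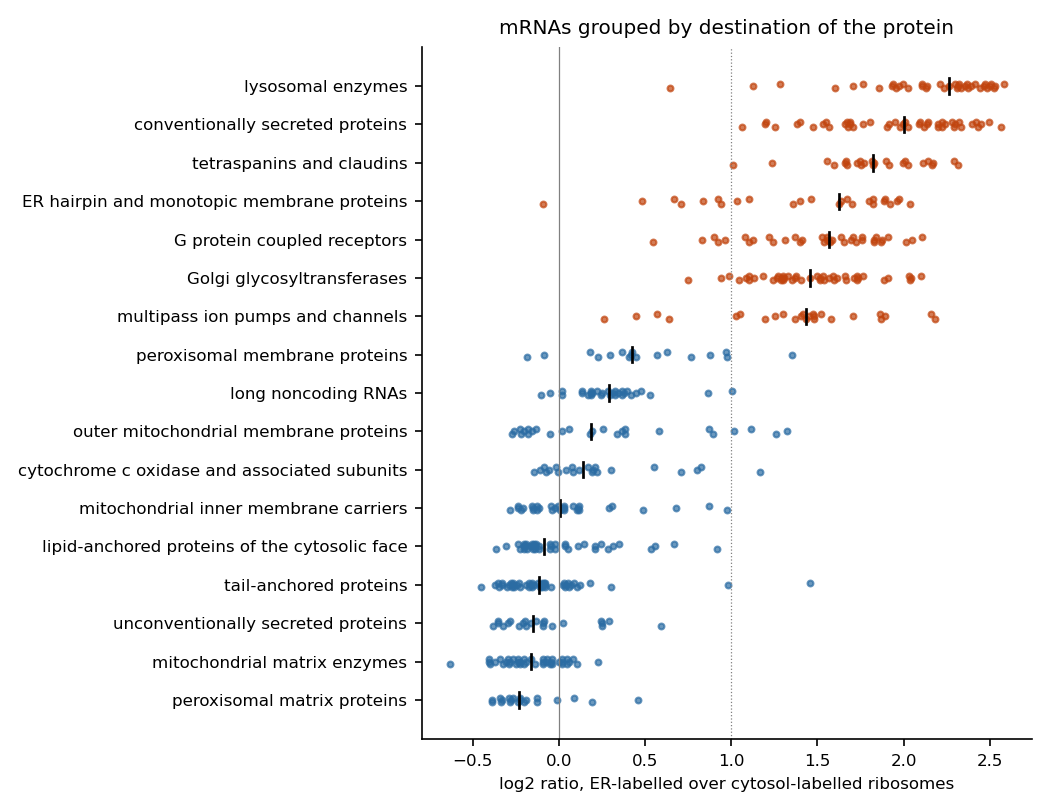
Log2 ratio of ER-labelled over cytosol-labelled ribosomes for each gene of 17 lists, ordered by median (black bars), with lists of medians above 1 in orange, a solid line at 0 and a dotted line at the 2-fold ratio. Lists of proteins that enter the ER lie mostly beyond the dotted line, matrix, tail-anchored and lipid-anchored proteins lie around 0, and the medians of peroxisomal and outer mitochondrial membrane proteins lie between the lines.

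The ratio was then described against the hydrophobic segments of the encoded protein, which the choice of genes did not use. Segments were 19-residue windows with a mean hydropathy of at least 1.6. With an N-terminal segment and others, 1285 of 1430 genes were higher and 66.0% over 2-fold higher (median 1.55). With an N-terminal segment alone, 52.0% of 1205 genes were over 2-fold higher (median 1.38), and with 2 or more internal segments 42.3% of 1157 (median 1.11). A single internal segment gave 11.9% of 1304 (median 0.06), a single segment within 30 residues of the C terminus 9.5% of 200 (median -0.08), and no segment 0.635% of 8820 (median -0.12, or 0.12 with cytosolic scaling). The share over all 14116 genes with a protein was 16.2%.

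The ratio differed with the hydropathy of the start of the protein mainly over a narrow range. Among 10677 such genes at 5 CPM or more, the median ratio was -0.10 where the highest N-terminal window was below 1, and still -0.02 between 1.6 and 1.8. It was 0.13 between 1.8 and 2, with quartiles at -0.11 and 1.38. Between 2 and 2.2 it was 1.10 and between 2.2 and 2.5 it was 1.62. Above that it changed little, at 1.72 from 2.5 to 2.8 and 1.74 beyond. The share of genes over 2-fold higher went from 11.3% (1.6 to 1.8) over 27.7% and 46.9% to 73.5% (2.2 to 2.5) and 85.2% (2.5 to 2.8). Short proteins stood apart: with an N-terminal segment only, 27 proteins of up to 80 residues had a median of 0.37 and 27 of over 80 and up to 120 residues 0.83, against 1.52 up to 200 residues and 1.61 up to 450.

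In proteins without an N-terminal segment but with 2 or more others, the ratio was lower the later the first segment came. The median was 1.65 where it started within the first 40 residues (120 genes), 1.51 up to residue 100 (257), 1.13 up to 200 (183), 0.33 up to 400 (111) and 0.16 beyond 400 (121). With segments required to reach a mean hydropathy of 1.9, the decline was shallower, from 1.73 (59 genes) over 1.56, 1.37 and 1.34 to 0.92 beyond residue 400 (36 genes). For proteins with a single segment, the number of residues that follow it made no steady difference at 1.6, where all medians lay between -0.11 and 0.10. At 1.9 the median was -0.09 with up to 15 residues after the segment (104 genes), 0.10 with 16 to 30, 0.24 with 31 to 60, and 0.78 to 0.81 with 61 to 400, then 0.41 with more (154 genes). By number of segments, now with proteins that have an N-terminal segment included, the medians lay between 1.44 and 1.56. The lower quartile, however, was 0.39 with 2 segments and 1.17 with 9 or more. Of the former 83.2% were higher and 62.3% over 2-fold, and of the latter 99.3% and 77.3%.

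Among genes without any segment, the median differed with length but did not follow it in 1 direction. It was -0.05 for up to 120 residues (299 genes, 17.1% higher) and -0.13 up to 200. It was -0.16 for over 200 and up to 450 residues (2518 genes), -0.14 up to 1000, -0.04 up to 1500, 0.06 up to 2500 (258) and 0.23 beyond 2500 (44 genes, 32 of them higher). With cytosolic scaling these medians were 0.19, 0.11, 0.08, 0.10, 0.20, 0.30 and 0.46. Across the 7024 genes, Spearman's rho between length and ratio was 0.10, a correlation across genes that share the same 6 libraries and that are not independent replicates.

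**Figure D5:**
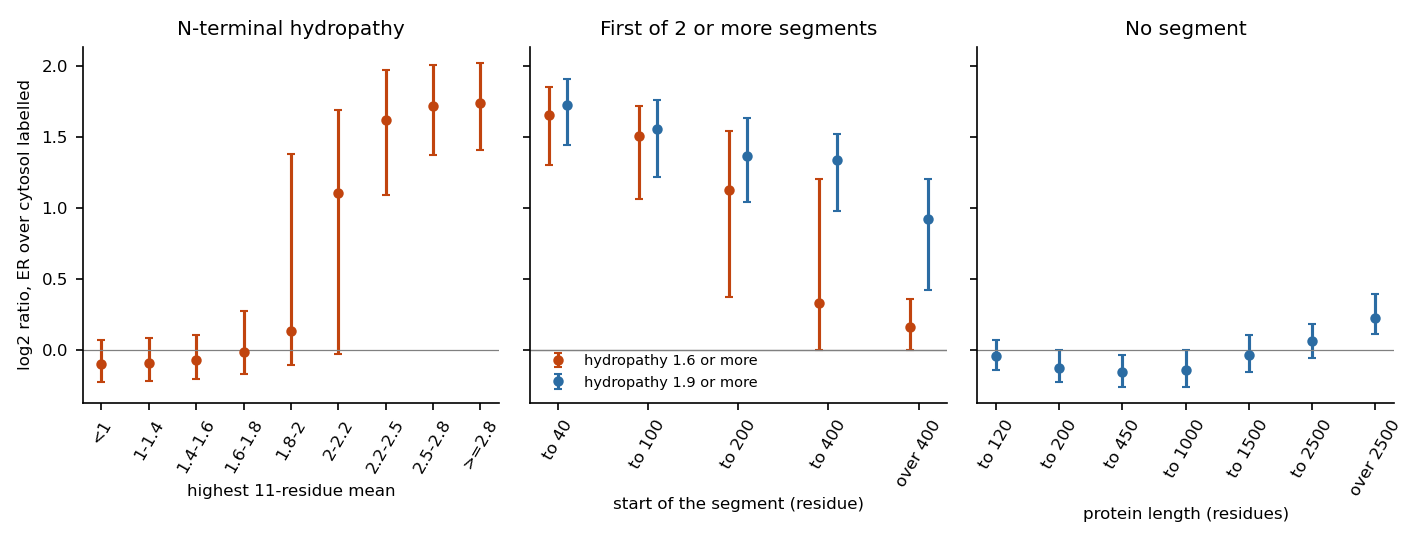
Median log2 ratio of ER-labelled over cytosol-labelled ribosomes (points) with the quartiles (bars), at 5 CPM or more, by the highest mean hydropathy near the N terminus, by the start of the first of 2 or more segments at 2 thresholds, and by length for proteins without a segment. The ratio steps up between a hydropathy of 1.8 and 2.5, declines with a later first segment, and stays near 0 for proteins without one.

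The genes named here are those that most went against these rules at 20 CPM or more, and many lay close to a threshold. Over the full classes exceptions were more common. With an N-terminal segment alone, 62 of 1205 genes were lower and 228 not past the threshold. With 2 or more internal segments these were 51 and 210 of 1157. Without a segment 898 of 8820 genes (10.2%) were higher. At 20 CPM or more, 30 genes without a segment were over 2-fold higher. The highest of this class included Grn, Plod2, Man2b2, Fstl3, Selenof, P3h4, Elmod2, Pcsk6 and Mbtps2, from 2.58 (SE 0.042) for Grn to 1.8 (SE 0.057) for Mbtps2. Most are secreted, lysosomal or ER proteins. The highest N-terminal window was between 1.74 and 1.86 in Grn, Plod2, Man2b2, Fstl3, Selenof and P3h4, short of the value of 2 required, and between 0.56 and 1.04 in Elmod2, Pcsk6 and Mbtps2. Mbtps2 and Fstl3 are less certain, since 2867 bases of exon in Mbtps2 are shared with Yy2 on the same strand and 1157 in Fstl3 with Prss57 on the opposite strand. Selenof, whose chain holds a selenocysteine, was read only up to that codon. Mbtps2 was read from a transcript that encodes 378 residues. No other transcript of it was scanned, so its place in this class holds for that product only. Grn, a precursor of secreted and lysosomal granulins, was at 724.5, 736.0 and 732.4 CPM against 127.5, 111.3 and 126.9 CPM. Its annotated start (start codon at chr11:102430509-102430511, plus strand, GRCm38) is printed because its marked stretch is weaker than in the ER members of the pairs above. The stretch has a mean hydropathy of 1.85 from codon 21 to codon 31.
Grn: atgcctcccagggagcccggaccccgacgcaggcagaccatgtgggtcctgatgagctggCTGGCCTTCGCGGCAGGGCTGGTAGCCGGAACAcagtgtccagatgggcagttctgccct

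In the opposite class, 248 genes at 20 CPM or more had an N-terminal segment and at least 2 others, and 247 of them were higher. The exception was Slc25a22, a glutamate carrier of the inner mitochondrial membrane, at 18.2, 19.8 and 18.8 CPM against 21.7, 22.3 and 22.3 CPM (-0.22, SE 0.063; 0.02 with cytosolic scaling). The next lowest were the slit diaphragm protein Nphs1 at 0.27, the peroxisomal transporter Abcd3 at 0.30, the lipid kinase Pi4ka at 0.31, the glutamate receptor subunits Grik5 at 0.45 and Grin1 at 0.82, Tmem234 at 0.84, Lrp3 at 0.89, Rtn4 at 0.92 and Maco1 at 1.03. Slc25a22 and Abcd3 are destined for mitochondria and peroxisomes. Rtn4 was scanned as a protein of 199 residues and no other transcript of it was scanned, while its counts are for the whole gene.

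The 15 highest protein-coding genes at a mean of 20 CPM or more ran from Ddost at 2.67 (SE 0.037) to the disulfide isomerase Pdia6 at 2.51 (SE 0.040). Among less abundant genes Gm10320 reached 5.73, with means of 5.53 CPM (ER) and 0.10 CPM (cytosol). Besides Bsg, Grn, Psap, Pigs, Trh, Lman1, Glg1 and Gpc3 the 15 held the lysosomal hydrolases Naaa (2.55), Tpp1 (2.53) and Ctsb (2.52), the adhesion molecule Bcam (2.54) and Atp6ap1 (2.52). In each of them the 3 ER libraries lay above the 3 cytosol libraries.

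Genes lower on ER-labelled ribosomes differed by much less. The 12 lowest that were called with both scalings ran from -0.66 to -0.58 (-0.42 to -0.35 with cytosolic scaling), and most encode nuclear proteins. Rcc1, which loads the GTPase Ran on chromatin, was at 111.2, 109.7 and 114.9 CPM on ER-labelled against 168.1, 188.6 and 174.3 CPM on cytosol-labelled ribosomes (-0.66, SE 0.045, adjusted p = 2.91e-15, edgeR). The RNA-binding proteins Ewsr1 (222.2, 234.4 and 235.0 CPM against 319.9, 367.5 and 350.3 CPM; -0.58, SE 0.041), Myef2 (-0.61), Rbmxl2 (-0.60) and Rbm34 (-0.60) were among them, as were the lamin Lmnb2 (-0.63), the acetyltransferase Kat2a (-0.58) and the deubiquitinase Usp11 (-0.60). The others were the GTPase Gtpbp1 (-0.61), Slc4a1ap (-0.61), the copper chaperone Ccs (-0.61, SE 0.094) and the mitochondrial Dlat. Dlat, a subunit of pyruvate dehydrogenase, was at 82.3, 82.8 and 83.1 CPM against 124.7, 130.3 and 129.7 CPM (-0.63, SE 0.037). In each of these 12 genes the 3 ER libraries lay below the 3 cytosol libraries. Ewsr1, Myef2 and Gtpbp1 share 254 bases or more of exon with a gene on the opposite strand.

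Lists of nuclear and cytosolic proteins described the same small shift. Medians were -0.29 for tRNA synthetases, -0.28 for cytosolic chaperones, -0.23 for lamins and other nuclear matrix proteins, -0.21 for replication proteins, -0.20 for ubiquitin-conjugating enzymes and -0.17 for RNA polymerase II and Mediator. With cytosolic scaling they were -0.05, -0.04, 0.01, 0.02, 0.04 and 0.07, the first 2 lists being part of that scaling's reference. Other lists in that reference had medians of -0.23 (proteasome), -0.17 (glycolysis) and -0.10 (translation factors). Of 36 translation factors 10 were higher (27.8%, against 29.1% of all tested genes) and 19 lower. The listed long noncoding RNAs went the other way, 17 of 30 being higher and 0 lower by edgeR's test (median 0.29, or 0.53 with cytosolic scaling), though 0 were over 2-fold. Over all 390 tested lincRNAs, 42 were higher (10.8%) and 0 lower with a median of 0.09, and of 292 antisense RNAs 21 were higher (7.19%), both shares below the 29.1% of all genes. In this list Tug1, Snhg15 and Gas5 were at 0.48, 0.42 and 0.34. H19 stood highest at 1.00 (SE 0.401) but at under 1 CPM, with overlapping libraries, and lost its call in 6 of 19 alternative settings. Protein-coding genes made up 2289 of the 2317 genes over 2-fold higher.

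Whole-cell RNA was set beside these results to see whether targeting the biotinylation system itself went with different transcript levels. Between ER and cytosol targeting, 0 genes (0.0%) passed the threshold in either direction by edgeR's test, where 634 had an unadjusted p under 0.05 and the smallest adjusted p was 0.998. DESeq2 called 0 as well, with 342 at an unadjusted p under 0.05. The 5 genes with the smallest p at 20 CPM or more had whole-cell ratios of -0.22 (Capn10), -0.22 (C1galt1), -0.20 (Tor1a), 0.17 (Pwwp2a) and 0.21 (Nt5dc3). Tor1a, an ATPase of the ER lumen, was at 84.4, 85.8 and 84.1 CPM on ER-labelled against 26.0, 27 and 25.8 CPM on cytosol-labelled ribosomes (1.69, SE 0.047).

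Taking the enrichment over whole-cell RNA of the same targeting, and testing the difference of the enrichments, 4023 genes (24.8%) were higher and 3010 (18.6%) lower for the ER. Over 2-fold, 2103 (13%) were higher and 1 (0.00616%) lower. Among the former were 2057 of the 2317 genes above; both tests share the 6 ribosome-bound libraries. For the genes named, the difference of enrichments was close to the direct ratio, such as 2.66 against 2.67 for Ddost, 2.26 against 2.28 for Hspa5 and 1.69 against 1.66 for Sar1b. The largest gaps at 20 CPM or more were in Lars2 and Mir6236, followed by Pcdhgc3, B3galnt2 and Ier3. Lars2 was at 234.3, 203.0 and 558.1 CPM on ER-labelled and at 222.1, 139.3 and 149.9 CPM on cytosol-labelled ribosomes, so that the groups overlapped and the value rested on ER replicate 3 (0.96, SE 0.262; 0.30 and not past the threshold without that library). In whole-cell RNA it was at 333.3, 930.2 and 335.4 CPM with cytosol targeting and at 289.5, 277.6 and 355.5 CPM with ER targeting. Its difference of enrichments was 1.75, and 1.02 without the whole-cell library of cytosol replicate 2. Mir6236 also had its highest value in ER replicate 3, at 91.3 CPM against 46.8 and 45 CPM in the others, and its ratio of 0.72 was 0.26 and not past the threshold without it. Its whole-cell levels with cytosol targeting were 57.4, 182.4 and 66.2 CPM, and its difference of enrichments was 1.51, or 0.74 without the whole-cell library of cytosol replicate 2.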

How the data were processed

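Poly(A) RNA was sequenced from 12 libraries in 4 groups (whole-cell or ribosome-bound RNA, cytosol or ER targeting, 3 biological replicates each). The deposited values are raw read counts per gene, for which the submitters' processing notes name STAR (2.7.9a), HTSeq (0.11.2) and the GRCm39 build; the kit was directional, and the strand setting of the counting is not given in the sources used here. Of 55416 gene identifiers, 52083 were matched to a symbol, and the others held 0.406% of the counts.

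All 12 libraries were fitted together in edgeR 4.0.16 (R 4.3.3) with 1 term per group, TMM scaling and filterByExpr, and p-values were adjusted over all 16221 genes tested at a threshold of 0.05; glmTreat tested for over 2-fold. On simulated counts for this comparison (16221 genes), it recovered 36, 40, 48 and 50 of 50 genes changed by 1.25, 1.5, 2 and 4-fold. With only these genes changed, there were 9 false calls. The number of false calls with 2317 genes over 2-fold higher on 1 side, as in the data, was not tested. The biological coefficient of variation was 3.6%. Levels are TMM-scaled CPM, and errors are standard errors of the log2 ratio. Alternatives were DESeq2 1.42.0, RLE size factors, scaling to 137 genes of cytosolic proteins, no filter, fewer libraries, a replicate block (a further one chosen after seeing the data) and other segment thresholds. Proteins were translated from GENCODE M21 transcripts (GRCm38, matched for 21499 genes by identifier), up to any selenocysteine codon, and exon overlaps are from the same annotation; no coordinates were moved between builds.

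Genes named by rule were the 15 highest and 12 lowest, all listed pairs, each list's highest and lowest member, the 10 that most go against each segment class, 5 from the whole-cell comparison, the 5 that most differ in enrichment, and Rpl31. Further genes were named after their values were seen: members of the lists with other values, and those in the exceptions. The lists were chosen with earlier results of these data known. Some genes that the rule names are not reported here.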

Additional observations from a re-analysis of the deposited data

Results flagged for a closer look

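The difference of enrichments between ER and cytosol targeting, an interaction of labelling and fraction tested with edgeR over all 12 libraries, was past the threshold for 4023 genes with a higher and 3010 genes with a lower enrichment on ER-labelled ribosomes.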

How the results depend on the processing

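Of 234 named genes, 168 kept their call in every alternative setting. The 2317 genes over 2-fold higher shared between 1930 (DESeq2) and 2317 (cytosolic scaling) genes with each alternative, and between 2092 and 2305 when a library was left out. Cytosolic scaling gave 8215 higher and 616 lower genes for ribosome-bound RNA, and 6643 higher, 336 lower and 0 over 2-fold lower for the difference of enrichments. It turned the sign of 29 named genes, 15 of them not called before, of which 12 were then called higher. The 14 called lower before moved to 0.09 (Capn10), 0.09 (Cox5a), 0.01 (Ctnnb1), 0.05 (Far1), 0.05 (Lss), 0.11 (Man2c1), 0.10 (Npepps), 0.02 (Ppia), 0.09 (Prdx1), 0.02 (Slc25a22), 0.06 (Smad5), 0.13 (Sod1), 0.01 (Txn1) and 0.02 (Vdac1). Without a filter on low counts, 1 gene was over 2-fold lower in ribosome-bound RNA, 7 were lower in whole-cell RNA and 2 were over 2-fold lower in the difference of enrichments, where DESeq2 called 0. Leaving out 1 library at a time gave 0 to 1, 0 to 2 and 0 to 3 genes for the same counts. Less the median of all genes, the median of the class with a single internal segment was 0.00 without the filter, 0.55 with segments at 1.9 or more and -0.03 at 1.4 or more. With an N-terminal segment alone it was 1.09 without the filter and 1.56 at 5 CPM or more, and with an N-terminal segment and others 1.38 and 1.74. With 2 or more internal segments it was 0.97 without the filter, 1.32 at 1.9, 0.50 at 1.4 and 1.24 at 5 CPM. Without a segment it was -0.18 without the filter, -0.11 at 1.9 and -0.09 at 5 CPM, and with a single C-terminal segment 0.01 at 1.9. The cause of these shifts was not tested. With the replicate number as a block, 2315 genes were over 2-fold higher, 2308 of them shared, and 2 named genes (Capn10 and Man2c1) lost their call. Same-numbered ER and cytosol ribosome-bound libraries had correlations of deviations of 0.068, -0.193 and -0.07, and differently numbered ones ran from -0.15 to 0.215. Pairing by number was thus not seen, but with 3 libraries per group such values cannot exclude it. Same-numbered whole-cell and ribosome-bound libraries of 1 targeting had 0.086, 0.086 and 0.044 (cytosol) and -0.001, 0.227 and 0.238 (ER), not all over 0.1. A block for each targeting and number, chosen after seeing the data, gave 4112 genes higher, 3257 lower and 2128 over 2-fold higher in the difference of enrichments. Low counts limit genes such as H19 and Itpr2.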
